A study of Mus musculus with 8 samples.

Results

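*Procr*, *Slamf1*, *Cd48*, *Cd34*, *Ly6a*, *Esam*, *Tek*, *Fgd5*, *Ctnnal1* and *Pdzk1ip1* are genes by which hematopoietic stem cells (HSCs) of the mouse are told from the progenitors around them. They were taken by symbol from a table of read counts for 54532 genes. All 10 had enough reads to be tested, among 13560 tested genes. The rule that picked them used their names and no measured value, though earlier results of these data were known when it was written. The RNA came from LSK cells of C57BL/6 bone marrow, the cells without mature lineage antigens that carry SCA-1 and C-KIT and include HSCs and multipotent progenitors, sorted by EpCAM protein on the cell surface into an EpCAM+ and an EpCAM- fraction with 4 libraries each. Every library came from Zeb1-/- mice, in which both floxed copies of *Zeb1* (Zeb1fl/fl) are cut by Mx1-Cre after doses of pIpC, an RNA mimic that raises interferon, and the cells were taken 14 days after pIpC ended. Mx1-Cre acts in interferon-responsive cells of many tissues and not in blood cells alone. Both fractions came from mice given pIpC to delete *Zeb1*. The data therefore compare EpCAM+ with EpCAM- cells within Zeb1-/- marrow and hold no library of undeleted mice. The study reports complete deletion by genomic PCR in LSK cells, and gives no such result for each EpCAM fraction. The labels give 4 mice per genotype. The sources used here gave no age for these mice, and 8 to 12 weeks for the mice of another assay of the study.

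HSCs sit at the top of the blood system, renew themselves, and give rise to multipotent progenitors that divide more and commit to a lineage. Within LSK cells the SLAM receptors separate these stages, since mouse HSCs carry CD150 (*Slamf1*) and lack CD48, while most progenitors carry CD48. EPCR (*Procr*), ESAM and TIE2 (*Tek*) are further surface proteins of HSCs that endothelial cells also carry, and reporter alleles in *Fgd5*, *Ctnnal1* and *Pdzk1ip1* have been used to find HSCs. CD34 runs the other way in adult mice, being low on long-term HSCs and present on most multipotent progenitors.

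The libraries held 15225714 to 17073546 counted reads in the EpCAM+ fraction and 14114491 to 15929923 in the EpCAM- fraction. *Epcam* itself stood at 161 to 234 CPM (read counts scaled by library size, the unit of all levels below) in EpCAM+ libraries and at 1.25 to 8.99 CPM in EpCAM- libraries. Reads of *Zeb1* remained in both fractions, at 14.8 to 23.7 CPM against 9.49 to 14.0 CPM, and a count over the whole gene does not show the state of the deleted exon. *Kit*, which both gates require, was found in every library at 155 to 328 CPM and was higher in EpCAM+ cells (log2 fold change 0.45, adjusted p = 0.0276 with edgeR's quasi-likelihood test). Markers of mature cells differed between libraries of the EpCAM+ fraction. The summed level of dendritic cell markers was 7241, 707, 1973 and 7343 CPM in EpCAM+ libraries 1 to 4. In the EpCAM- libraries it was 242 to 338 CPM. The most abundant of these markers were 2 genes of MHC class II. *H2-Ab1* had a mean of 2622 CPM in EpCAM+ and 114 CPM in EpCAM- cells, and *H2-Aa* had 1468 and 34.7 CPM. In EpCAM+ libraries the sum therefore follows mainly these genes. *Bst2*, also in the list of interferon-response genes, had means of 110 and 111 CPM. B and plasma cell markers summed to 3731 CPM in EpCAM+ library 1, to 295 to 519 CPM in the other EpCAM+ libraries and to 48.8 to 84.7 CPM in the EpCAM- libraries, with *Pax5* at 0. The part of cells with these markers in the results was not tested. Counts of called genes without EpCAM+ libraries 1 and 4 are given below for the lists in which they moved by over 1.5 times. This alternative was added after the data were seen.

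*Slamf1* and *Cd48*, the pair that defines the SLAM gate, lie on the same strand of chromosome 1 with 61868 bases and 5 annotated genes between them. The 250 bases before each start site, from RefSeq on GRCm38.p6, are shown because these genes are neighbors and yet mark opposite stages. *Slamf1* is at chr1:171766882-171767131 on the plus strand, and *Cd48* is at chr1:171681742-171681991 on the plus strand. Capitals mark CACCTG, a letter sequence bound by ZEB factors, in *Slamf1*, and TGTGGT, a RUNX sequence, in *Cd48*.
Slamf1: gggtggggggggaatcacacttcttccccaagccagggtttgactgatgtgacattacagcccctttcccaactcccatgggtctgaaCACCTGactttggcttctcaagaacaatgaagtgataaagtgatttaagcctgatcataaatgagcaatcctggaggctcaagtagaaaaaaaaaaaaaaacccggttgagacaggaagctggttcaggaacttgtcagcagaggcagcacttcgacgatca
Cd48: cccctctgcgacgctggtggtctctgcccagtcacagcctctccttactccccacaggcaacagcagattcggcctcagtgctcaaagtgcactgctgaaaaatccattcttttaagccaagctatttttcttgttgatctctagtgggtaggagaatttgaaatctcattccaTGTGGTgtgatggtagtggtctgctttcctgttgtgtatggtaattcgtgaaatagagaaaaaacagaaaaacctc

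Promoter sequence was at hand for 8 of the 10 genes, all but *Ly6a* and *Esam*. The window searched ran from 250 bases before to 50 bases after the start site, on both strands, and no match overlapped that of another motif. The ZEB motif (CACCTG or CAGGTG) occurred in 1 of 8 windows, *Slamf1*, at 162 bases before the start, and in 20.2% of the 32851 promoter windows of the same length. The RUNX motif (TGTGGT or ACCACA) occurred in 1 of 8, *Cd48*, at 76 bases before the start, and in 16.8% of all windows. The GATA motif (AGATAA or TTATCT) occurred in 1 of 8, *Tek*, after its start site, and in 11.2% of all windows. A match describes letters and is no sign of binding in these cells.

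In the EpCAM+ fraction 8 of the 10 genes were higher than in the EpCAM- fraction, and none was lower, either at an unadjusted p under 0.05 or with DESeq2, which also called 8 higher. Over all tested genes, 21.8% were higher, 20.8% were lower and 42.6% differed in either direction by the same rule, an adjusted p under 0.05 in edgeR's quasi-likelihood test. The 2961 genes higher and 2818 lower became 3642 and 2083 with upper-quartile scaling, and 3476 and 2066 with library totals, while the calls of the 10 genes stayed. The median log2 fold change was 1.27 over the 10 genes and 0.02 over all tested genes. *Procr*, *Ly6a*, *Fgd5*, *Esam*, *Pdzk1ip1* and *Tek* were higher by more than 2-fold, *Slamf1* and *Ctnnal1* by less, and *Cd48* and *Cd34* did not pass the test. These calls come from an unpaired fit. A paired fit, with the replicate number as a block, called 9 of the 10 genes higher, *Cd34* among them. Over all tested genes it called 6818, with 3465 higher and 3353 lower. The 4 values of one fraction lay clear of the 4 of the other for 7 of the 10 genes, against 40.1% of all tested genes. In bulk RNA, fewer cells of a type and less RNA per cell cannot be told apart, so none of these values says how many cells in a fraction were HSCs.

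**Figure D1:**
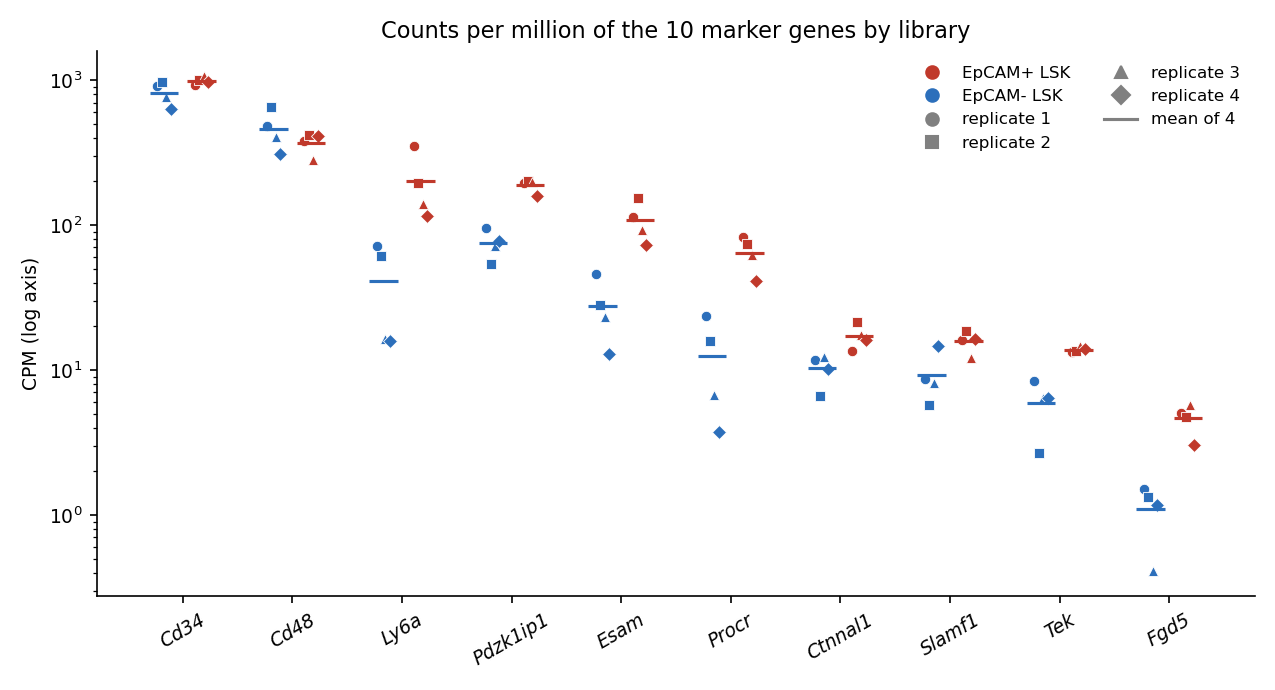
Level of the 10 marker genes in each library, in CPM on a log axis, with EpCAM+ libraries beside EpCAM- libraries, marker shape for the replicate number and a horizontal line for the mean of 4. *Procr* spans 40.9 to 82.1 CPM in EpCAM+ libraries and 3.75 to 23.7 CPM in EpCAM- libraries, while the *Cd48* and *Cd34* values of the fractions overlap.

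*Procr* (ENSMUSG00000027611, chr2:155751117-155755471, plus strand) encodes EPCR, the receptor that holds protein C and by which HSCs are often isolated. Its level was 82.1, 73.6, 62.0 and 40.9 CPM in EpCAM+ libraries 1 to 4, from 1256, 1298, 1110 and 630 reads. In EpCAM- libraries 1 to 4 it was 23.7, 15.8, 6.76 and 3.75 CPM, from 379, 213, 99 and 51 reads. The lowest EpCAM+ library stood above the highest EpCAM- library, and EpCAM- library 4 had the fewest reads of all. The mean was 64.6 ± 17.9 CPM in EpCAM+ cells and 12.5 ± 9.03 CPM in EpCAM- cells (SD, n = 4 each), the largest fitted change of the 10 genes (log2 fold change 2.36 ± 0.46, SE, 95% interval 1.35 to 3.38, adjusted p = 0.00272, edgeR). Leaving out any 1 of the 8 libraries gave a log2 fold change between 2.06 and 2.88, and all 8 fits passed the test. The EpCAM- mean of *Procr* was 19.3% of the EpCAM+ mean, while that of *Epcam*, on which the fractions were sorted, was 2.07%.

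*Ly6a* (chr15:74994877-74998031, minus strand) encodes SCA-1, the protein that both fractions were gated on, and its transcription rises under interferon. It was found at 351, 195, 140 and 116 CPM in EpCAM+ libraries 1 to 4. EpCAM- libraries 1 to 4 held 71.7, 61.3, 16.4 and 15.7 CPM. The fractions did not overlap, and both were uneven within themselves, with library 1 highest and library 4 lowest on each side. The mean was 201 ± 106 CPM against 41.3 ± 29.4 CPM (SD, n = 4 each; log2 fold change 2.28 ± 0.53, SE, adjusted p = 0.00658, edgeR). Although both sorts required SCA-1 protein, the fitted *Ly6a* mRNA level was 4.85-fold higher in EpCAM+ cells. *Ly6a* shares 6.33% of its 75-base stretches with *Ly6c1* and *Ly6i*, so some of its reads could have been assigned to these relatives or dropped.

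Interferon-response genes moved in the same direction as *Ly6a*. Of 14 tested, 12 were higher in EpCAM+ cells and none was lower, among them *Irf7* (log2 fold change 1.67), a regulator of the interferon response, and *Mx1*, an antiviral GTPase whose promoter drives the Cre of this model, at 19 to 77 reads in EpCAM+ and 0 to 4 reads in EpCAM- libraries. Their summed level was 983 to 1170 CPM in EpCAM+ libraries and 706, 853, 557 and 556 CPM in EpCAM- libraries 1 to 4. Without EpCAM+ libraries 1 and 4, a fit with fewer samples, 4 interferon-response genes were called higher. Calls over all tested genes fell from 5779 to 3675 in that fit. *Ly6a* had a log2 fold change of 2.01 there (adjusted p = 0.0248, edgeR). A count of calls and a fold change cannot be set against each other. The part of interferon in the *Ly6a* result was not tested.

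*Esam* and *Tek* are surface proteins that HSCs share with endothelium. *Esam* (chr9:37528078-37538319, plus strand), an adhesion molecule of endothelial tight junctions and of HSCs, had 113, 154, 92.3 and 73.1 CPM in EpCAM+ libraries 1 to 4 and 45.9, 27.9, 23.3 and 12.9 CPM in EpCAM- libraries 1 to 4. The values did not overlap, and the means were 108 ± 34.9 and 27.5 ± 13.8 CPM (SD, n = 4 each; log2 fold change 1.97 ± 0.34, SE, adjusted p = 0.00150, edgeR). *Tek* (chr4:94739289-94874976, plus strand), the angiopoietin receptor TIE2, had 13.2, 13.4, 14.6 and 13.9 CPM in EpCAM+ libraries, the tightest values of the 10 genes. In EpCAM- libraries 1 to 4 *Tek* had 8.36, 2.66, 6.42 and 6.40 CPM, all below every EpCAM+ library. Its log2 fold change was 1.21 ± 0.27 (SE, adjusted p = 0.00514, edgeR). Of 12 endothelial markers 7 had too few reads to be tested, among them *Cdh5*, at 0 to 1 reads in EpCAM+ libraries and 0 to 2 in EpCAM- libraries, and *Kdr*, at 4 to 13 and 0 to 10 reads. The most abundant of the others was *Egfl7*, at a mean of 170 CPM in EpCAM+ and 132 CPM in EpCAM- cells, a gene also active in blood progenitors. Of the 5 tested, *Emcn* (log2 fold change 1.89) and *Sox18* (1.55) were higher and *Plvap* (-2.12) was lower, and the summed level of the list was 195 to 250 CPM against 169 to 223 CPM. Only 1 was higher without EpCAM+ libraries 1 and 4, and in the fits without EpCAM+ library 1, 2 or 4 or EpCAM- library 3 or 4.

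*Fgd5*, *Ctnnal1* and *Pdzk1ip1* are known less as antibody targets than as genes whose reporter alleles mark HSCs. *Fgd5* (chr6:91978878-92076004, plus strand), an exchange factor for the GTPase CDC42, rested on the fewest reads of the 10 genes, 77, 83, 103 and 47 in EpCAM+ libraries 1 to 4 and 24, 18, 6 and 16 in EpCAM- libraries 1 to 4. In CPM these are 5.03, 4.71, 5.76 and 3.05 against 1.50, 1.33, 0.410 and 1.18, with no overlap. The log2 fold change was 2.06 ± 0.36 (SE, adjusted p = 0.00152, edgeR), and its 95% interval, 1.27 to 2.85, also covers the values fitted for *Procr*, *Ly6a* and *Esam*. *Pdzk1ip1* (chr4:115088708-115093899, plus strand), a small membrane protein also called MAP17, had 194, 202, 198 and 160 CPM in EpCAM+ libraries and 95.7, 53.7, 72.1 and 77.0 CPM in EpCAM- libraries 1 to 4. Its change was smaller but the most precise of the 10 after *Cd34* (log2 fold change 1.34 ± 0.15, SE, adjusted p = 0.000250, edgeR), and its adjusted p was the lowest of them.

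*Ctnnal1* (chr4:56810935-56865188, minus strand), which encodes alpha-catulin, a relative of the alpha-catenins that link cadherins to actin, had 13.5, 21.4, 17.5 and 16.1 CPM in EpCAM+ libraries 1 to 4. In EpCAM- libraries 1 to 4 it had 11.8, 6.59, 12.4 and 10.2 CPM. The fractions did not overlap, though EpCAM+ library 1 lay just above EpCAM- library 3. The log2 fold change was 0.74 ± 0.20 (SE, 95% interval 0.29 to 1.20, adjusted p = 0.0151, edgeR). All 8 fits with 1 library left out passed the test, with log2 fold changes of 0.57 to 0.84.

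**Figure D2:**
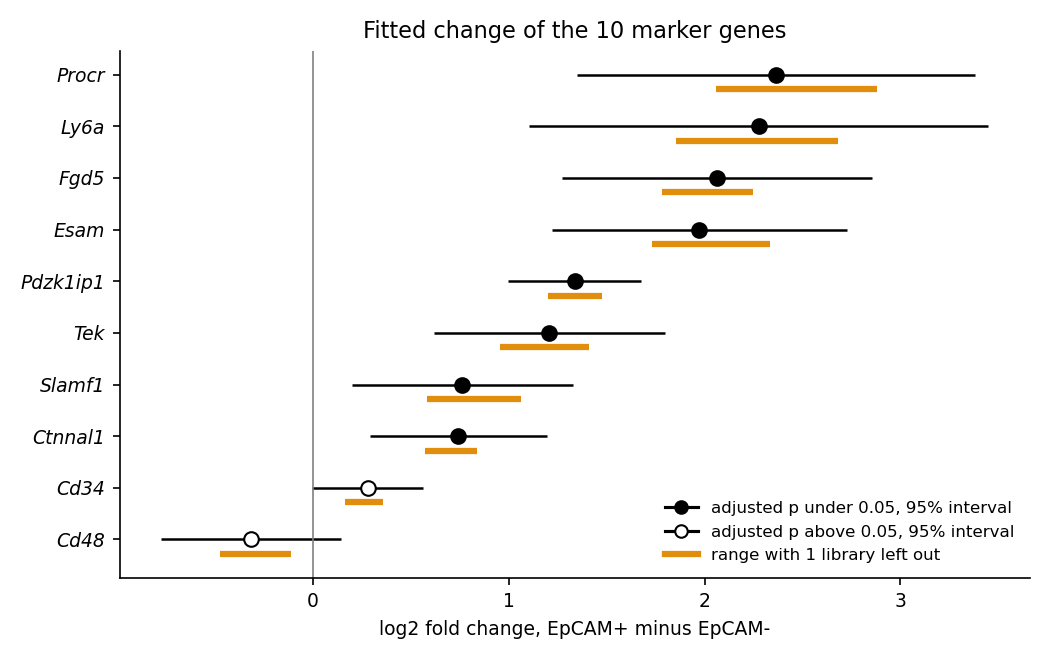
Fitted log2 fold change of the 10 genes, EpCAM+ minus EpCAM-, with 95% intervals as thin black lines, filled points for an adjusted p under 0.05, and an orange bar for the range over fits that leave out 1 of the 8 libraries. *Procr* is at the top at 2.36 and *Cd48* at the bottom at -0.32, and the intervals of *Cd48* and *Cd34* reach across 0.

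The SLAM pair gave the least settled values. *Slamf1* (chr1:171767127-171801184, plus strand), the CD150 receptor, had 16.2, 18.5, 12.02 and 16.3 CPM in EpCAM+ libraries 1 to 4. EpCAM- libraries 1 to 4 held 8.61, 5.70, 8.19 and 14.6 CPM. The fractions overlapped, because EpCAM- library 4 stood above EpCAM+ library 3, while each EpCAM+ library was above the EpCAM- library of the same number. The mean was 15.7 ± 2.70 against 9.28 ± 3.79 CPM (SD, n = 4 each), and the gene passed the test over all genes (log2 fold change 0.76 ± 0.25, SE, adjusted p = 0.0340, edgeR), whereas an exact permutation test on this gene alone (two-sided) gave p = 0.0571, where 0.0286 is the smallest p that 4 libraries against 4 allow. A paired fit, with the replicate number as a block, kept the call at a lower adjusted p than the unpaired fit. The permutation test and the fits with libraries left out did not use the pairing. In these unpaired fits the call did not hold when libraries were left out. Only 2 of the 8 fits with 1 library left out passed, those without EpCAM- library 4 or EpCAM+ library 3, with adjusted p from 0.00387 to 0.0906 over the 8, and without EpCAM+ libraries 1 and 4 it was 0.71 on the log2 scale (adjusted p = 0.135, edgeR).

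*Cd48* (chr1:171682009-171705258, plus strand), the SLAM receptor that HSCs lack, had 378, 418, 279 and 409 CPM in EpCAM+ libraries 1 to 4. EpCAM- libraries 1 to 4 held 483, 652, 406 and 309 CPM. EpCAM+ cells had less *Cd48* in pairs 1, 2 and 3 and more in pair 4. The means of 371 ± 63.8 and 462 ± 145 CPM (SD, n = 4 each) were not told apart (log2 fold change -0.32 ± 0.21, SE, 95% interval -0.78 to 0.14, adjusted p = 0.238, edgeR), and no fit with 1 library left out passed. The EpCAM+ libraries therefore held abundant *Cd48* mRNA together with higher levels of the HSC genes above.

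Ratios within a library do not depend on the scaling between libraries. For every *Cd48* read, *Procr* reads gave a log2 ratio of -2.20, -2.50, -2.17 and -3.32 in EpCAM+ libraries 1 to 4 and of -4.35, -5.37, -5.91 and -6.36 in EpCAM- libraries 1 to 4, without overlap. The *Slamf1* ratio was nearly constant over EpCAM+ libraries, at -4.54, -4.50, -4.54 and -4.65. In EpCAM- libraries it was -5.81, -6.84, -5.63 and -4.40, so that EpCAM- library 4 lay above all EpCAM+ libraries. That library had the highest *Slamf1* and the lowest *Procr*, *Ly6a*, *Esam*, *Cd48* and *Cd34* levels of its fraction. The *Ly6a* ratio again split the fractions, at -0.11 to -1.82 against -2.75 to -4.63.

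**Figure D3:**
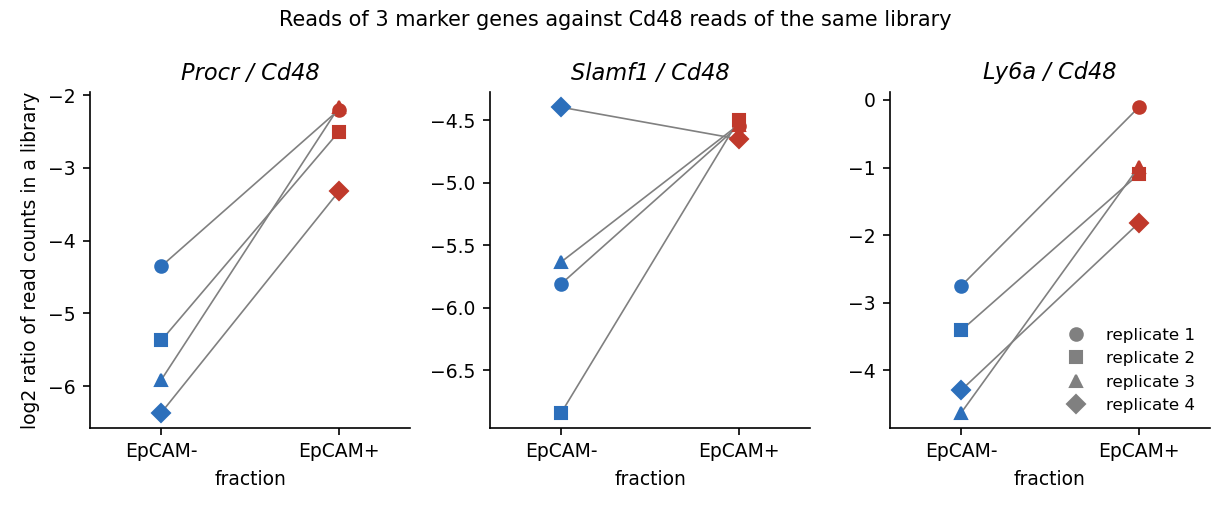
Log2 ratio of *Procr*, *Slamf1* and *Ly6a* reads to *Cd48* reads of the same library, for the 4 EpCAM- and 4 EpCAM+ libraries, with marker shape for the replicate number. The fractions are separate for *Procr* and *Ly6a*, and for *Slamf1* the EpCAM- library 4 at -4.40 lies among the EpCAM+ values or above them.

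*Cd34* (chr1:194938819-194961279, plus strand), a sialomucin of progenitors and endothelium, was the gene with the most reads of the 10, at 923, 995, 1075 and 978 CPM in EpCAM+ libraries 1 to 4. EpCAM- libraries 1 to 4 held 912, 968, 766 and 630 CPM. The fractions overlapped, with EpCAM- libraries 1 and 2 next to the EpCAM+ values and libraries 3 and 4 below them. The log2 fold change was 0.28 ± 0.13 (SE, 95% interval -0.01 to 0.56, adjusted p = 0.104, edgeR). With the replicate number as a block, the paired fit gave 0.29 (adjusted p = 0.0485, edgeR). The unpaired fit without EpCAM- library 2 gave 0.36 (adjusted p = 0.0494, edgeR). Whether *Cd34* passed therefore depends on the fit. *Cd34* shares 148 exon bases with the antisense gene *Gm16897*, whose reads cannot be told from its own where strand is not kept.

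Levels were compared between genes per length, on which the 10 genes spanned a wide range. On the scale of mean CPM per kilobase of gene length, EpCAM+ cells had *Cd48* at 312, *Ly6a* at 167, *Cd34* at 136 and *Pdzk1ip1* at 106, then *Esam* at 37.7 and *Procr* at 31.8. *Tek* at 2.93, *Slamf1* at 2.56, *Ctnnal1* at 2.24 and *Fgd5* at 0.737 were the 4 lowest. Neighbors whose library values overlapped were *Cd48* and *Ly6a*, *Ly6a* and *Cd34*, *Esam* and *Procr*, *Tek* and *Slamf1*, and *Slamf1* and *Ctnnal1*, so the order within these pairs is not settled. In EpCAM- cells the per-length levels ran *Cd48* 389, *Cd34* 112, *Pdzk1ip1* 42.0, *Ly6a* 34.3, *Esam* 9.59, *Procr* 6.15, *Slamf1* 1.51, *Ctnnal1* 1.34, *Tek* 1.26 and *Fgd5* 0.175. *Ly6a* stood below *Cd34* and *Pdzk1ip1* there, and *Tek* below *Slamf1* and *Ctnnal1*. In EpCAM- cells 6 neighboring pairs overlapped, from *Pdzk1ip1* and *Ly6a* down to *Ctnnal1* and *Tek*. The deposited FPKM, which use other lengths, put *Cd34* first in EpCAM+ cells and *Ctnnal1* above *Slamf1* and *Tek* in both fractions, and left the same 4 genes lowest.

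The libraries of the EpCAM- fraction were the less alike for these genes. The coefficient of variation was larger in EpCAM- than in EpCAM+ libraries for 10 of 10 genes, with a median of 40.4% against 18.2%. How often this held over all tested genes was not computed, so it is not shown to be particular to the 10 genes. *Procr* differed 6.31-fold between the highest and lowest EpCAM- library and 2.01-fold between EpCAM+ libraries. *Tek* varied by 40.0% in EpCAM- libraries and by 4.61% in EpCAM+ libraries. EpCAM- library 1 was the highest of its fraction for 6 genes and library 4 the lowest for 5. The summed level of erythroid and megakaryocyte genes in EpCAM- libraries 1 to 4 was 4572, 4563, 8988 and 11464 CPM, highest in the library where *Procr*, *Ly6a* and *Esam* were lowest, and *Epcam* was 8.99 CPM in library 1 and 1.25 CPM in library 4. The part of these differences in the spread was not tested.

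**Figure D4:**
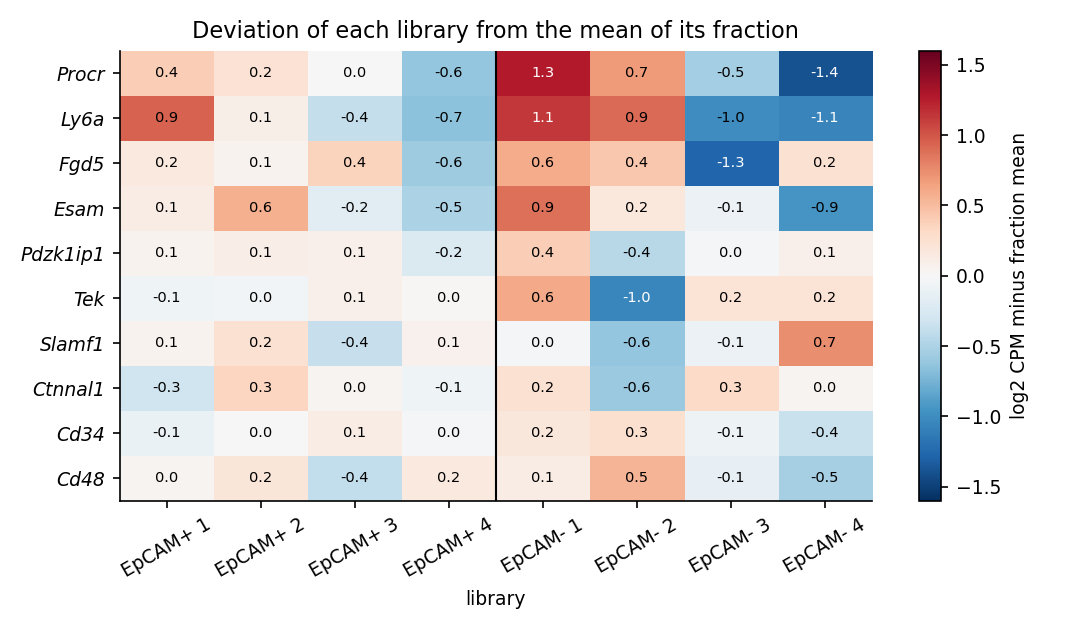
Deviation of each library from the mean of its fraction in log2 CPM, for the 10 genes as rows and the 8 libraries as columns, in color. EpCAM- library 4 is low for *Procr*, *Ly6a* and *Esam* and high for *Slamf1*, and the EpCAM+ columns show smaller deviations for most genes.

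The relatives of these genes did not all move with them. Of 8 tested SLAM family receptors 4 were higher and none lower, and the largest changes were in *Slamf7* (log2 fold change 5.91), a receptor of plasma cells, and *Slamf8* (5.82), a receptor of myeloid cells, with *Cd84* at 0.45. Without EpCAM+ libraries 1 and 4, 2 of the 8 were higher. Of 5 Ly6 genes 3 were higher, *Ly6a*, *Ly6d* (4.94) and *Ly6i* (1.83), while *Ly6c2*, a monocyte and progenitor antigen, had -1.91 (adjusted p = 0.0564, edgeR) and the abundant *Ly6e* had -0.04 (adjusted p = 0.846). With the replicate block 1 Ly6 gene was called lower, as it was without EpCAM+ library 1, without EpCAM- library 2, and without EpCAM+ libraries 1 and 4 together. All 3 genes of the TIE2 system with enough reads were higher, the receptor *Tek*, its partner *Tie1* (1.60, from 13.8 to 41.9 CPM) and the ligand *Angpt1* (0.95, from 155 to 299 CPM). Of 4 tested genes of the adhesion family that holds *Esam*, 3 were higher, *Esam*, *F11r* (JAM-A, 1.66) and *Jam2* (1.50).

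The other families were mixed or small. Of 8 genes of the protein C pathway 2 were higher, *Procr* and the thrombin receptor *F2rl3* (log2 fold change 0.91), and the sphingosine receptor *S1pr3* was lower (-0.77, adjusted p = 0.0410, edgeR). That last call was lost with upper-quartile scaling, with library totals, without EpCAM+ libraries 1 and 4, and in 6 of the 8 fits with 1 library left out, all but those without EpCAM+ library 2 or EpCAM- library 4. Thrombomodulin (*Thbd*), which works with EPCR on endothelium, had -0.01. Of 7 sialomucin and selectin ligand genes, *Emcn* (1.89), an endothelial sialomucin, and *Podxl* (1.51), a relative of CD34, were higher and *Cd164* was lower (-0.38). With the replicate block 5 of the 7 were called in place of 3, as they were without EpCAM- library 2, and without EpCAM+ libraries 1 and 4 the number lower was 2. In the FGD family 5 of 6 were higher, among them *Fgd2* (1.40) and *Fgd1* (1.23), and this fell to 3 without EpCAM+ library 1, 3 or 4, without EpCAM- library 2 or 3, and without EpCAM+ libraries 1 and 4 together. Of the 3 alpha-catenin relatives *Ctnna1* (0.64) rose with *Ctnnal1*, and *Vcl* had -0.26 (adjusted p = 0.294, edgeR).

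Most other genes enriched in HSCs were also higher in EpCAM+ cells. Of 40 tested, 27 passed in this direction, none was lower, and 24 did not overlap between fractions, with a median log2 fold change of 1.20. Among those with the lowest adjusted p were *Gata3* (1.80), a transcription factor, and *Meis1* (1.20), a HOX cofactor needed by HSCs. Further genes, chosen after their values were seen, were *Mecom* (2.38) and *Hlf* (1.91), transcription factors of HSC self-renewal. HSC-linked genes that did not pass included *Vwf* (-0.11, adjusted p = 0.834, edgeR), *Itga2b* (0.15, adjusted p = 0.546) and *Abcg2* (0.13, adjusted p = 0.415), also chosen after their values were seen. Without EpCAM+ libraries 1 and 4, 25 of the 40 were higher and 1 was lower.

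Genes of later stages went elsewhere. Of 16 myeloid progenitor genes 10 were lower in EpCAM+ cells and none was higher, except 1 when EpCAM+ library 2 was left out. *Mpo* (log2 fold change -3.74), *Ms4a3* (-3.78) and *Csf1r* (-3.71) had the lowest adjusted p, and the summed level of the list was 1378 to 2428 CPM in EpCAM+ libraries against 12479 to 20051 CPM in EpCAM- libraries. Of 11 erythroid and megakaryocyte genes 6 were lower, with *Tfrc* at -2.41 and *Klf1* at -4.21, and 1 was higher, the platelet glycoprotein *Gp9* (0.85). Of 7 mast cell and basophil markers 5 were lower. Genes of multipotent and lymphoid-primed progenitors had no common direction, with 4 of 13 higher, including *Flt3* (0.88), the receptor that marks progenitors rather than HSCs and was chosen after its value was seen, and 3 lower, including *Emb* (-0.76). Their median was -0.07, close to that of all tested genes.

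**Figure D5:**
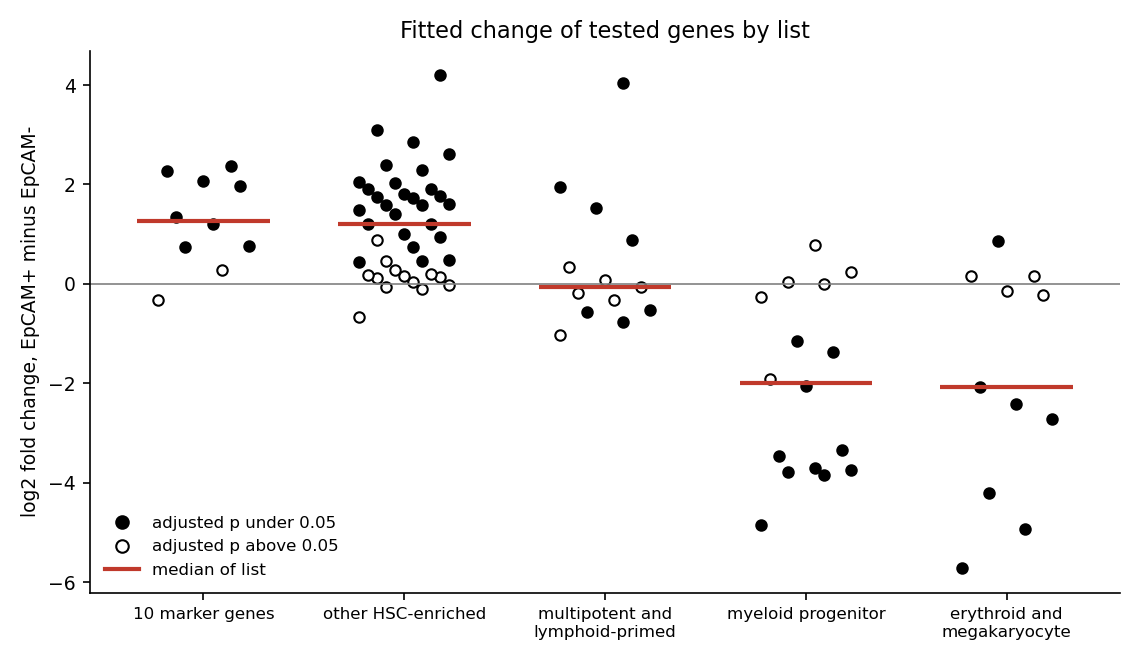
Fitted log2 fold change, EpCAM+ minus EpCAM-, of each tested gene in 5 lists, with filled points for an adjusted p under 0.05 and a red line for the median of a list. The 10 marker genes (median 1.27) and the other HSC-enriched genes (1.20) lie mostly above 0, the multipotent and lymphoid-primed genes (-0.07) around it, and the myeloid (-1.99) and the erythroid and megakaryocyte genes (-2.08) mostly below.

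Dendritic cell markers were higher in 6 of 8 and B and plasma cell markers in 4 of 6 tested genes, with *Xcr1* (log2 fold change 7.59) and *H2-Aa* (5.40) among them. *Jchain*, of plasma cells, had 3069 to 53916 reads in EpCAM+ libraries and 0 to 4 in EpCAM- libraries. Without EpCAM+ libraries 1 and 4 the dendritic list had 5 higher and 1 lower, and the B and plasma cell list had 3 higher. Of 3 tested T and NK cell markers *Lck* (1.34) and *Cd4* (1.01) were higher. This fell to 1 without EpCAM+ libraries 1 and 4 and in 6 of the 8 fits with 1 library left out. Those without EpCAM+ library 1 or EpCAM- library 2 were the exceptions. *Nkg7*, the most abundant marker of that list, did not pass (-0.13, adjusted p = 0.353, edgeR), at means of 730 and 797 CPM. The rest of the 10 T and NK markers had too few reads to be tested. Their list summed to 684 to 852 CPM in EpCAM+ libraries and 702 to 911 CPM in EpCAM- libraries. Of 9 monocyte and macrophage markers 1 was higher, or 2 with the replicate block and without EpCAM+ library 2, and 2 were lower, or 1 without EpCAM+ library 1 or 3 or EpCAM- library 1. Stromal markers summed to 23.2 to 28.1 CPM against 23.4 to 33.1 CPM, with *Col1a1* at 0. The replicate block called 1 of the 2 tested stromal markers higher, where the unpaired fit called none. None of the 10 genes is in these marker lists. Leaving out EpCAM+ libraries 1 and 4, which had the highest dendritic cell markers, left 7 of the 10 genes higher and none lower. *Slamf1* was the one that no longer passed. In that fit 1819 of 14043 tested genes were higher. EpCAM+ libraries 2 and 3 still held dendritic cell markers at 707 and 1973 CPM, against 242 to 338 CPM in EpCAM- libraries. The part of cells with these markers in the calls was not tested.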

How the data were processed

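RNA from 8 sorted LSK samples was amplified with SMART-Seq v4 and sequenced as paired ends. Per the submitters' processing notes, the authors used STAR 2.6.1d on GRCm38.p6, featureCounts 1.5.0-p3 and DESeq2 1.20.0. Their deposited table holds whole-number counts per gene without normalization, which all tests used, a gene length, and FPKM, which the authors computed from counts and length and which served only to check levels. Columns of log2 fold changes and p-values in the deposited file hold the authors' own comparisons and were not used. How strand and multi-mapping reads were handled in counting is not given in the sources used here. The kits used do not keep strand.

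Genes passed edgeR's filterByExpr, were scaled by TMM and tested with the quasi-likelihood test (R 4.3.3, edgeR 4.0.16, limma 3.58.1; two-sided, Benjamini-Hochberg over all tested genes, threshold 0.05). SEs derive from the F statistic. CPM use the scaled library size. The gene length equals the exon union of GENCODE M21 for all 10 genes. Reads carry no molecular identifiers. The members and lists were chosen with earlier results of these data known. The 10 genes are all named, as are up to 3 genes per list with the lowest adjusted p, relatives of the 10, and, in lists of other cell types, the most abundant marker and those at 0. Some genes that this rule names are not reported here. The 12 pairs of libraries within fractions all differed beyond counting noise (chi-square over its degrees of freedom, 7.39 to 65.6). The replicate numbers pair the samples: libraries of the same number deviated together from their fraction means (correlation across genes 0.205 to 0.356 in 4 pairs, against -0.216 to 0.0396 in the 12 others). Where the numbers come from, and which mouse gave which library, the labels do not say, so p-values measure the spread between these samples. On simulated data for this comparison (13387 genes, 200 changed 2-fold, 190 tested), 148 were recovered, all in the right direction, and 6 of 154 calls were false. The simulated libraries were unpaired and few of their genes changed, so these numbers do not give the error rate of the real comparison. Alternatives were DESeq2 1.42.0, other scaling, other filters on low counts, the replicate block and each library left out. Two-sided exact permutation tests compared single genes. Python 3.11.15 with matplotlib 3.10.9 drew the figures.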

Additional observations from a re-analysis of the deposited data

How the results depend on the processing

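The number of the 10 genes called stayed within 1.5 times of the reported one in each of the alternatives run. The only log2 fold changes to lose or gain their call were those of *Slamf1* (7 alternatives lost it, all of which left out libraries) and *Cd34*, which passed with the replicate block (adjusted p = 0.0485, edgeR) and without EpCAM- library 2 (adjusted p = 0.0494). The replicate block changed no other call among the 10 genes. No direction reversed. With EpCAM+ libraries 1 and 4 left out, an alternative chosen after seeing the data, 3675 genes were called over all tested genes (1819 higher, 1856 lower) against 5779 (2961 higher, 2818 lower), with fewer samples in the fit. Scaling by the upper quartile or by library totals moved the median log2 fold change of all genes from 0.02 to 0.11 and the split of calls to 3642 higher and 2083 lower, or 3476 higher and 2066 lower. *Fgd5* could not be fitted where 10 counts were required in every library. The level per length moved by more than the spread between libraries only with the deposited FPKM, in 16 of 20 values, another alternative chosen after seeing the data. Of the counts called in the other lists, 91 moved by over 1.5 times and 869 did not. Counting error limits *Fgd5*, which had 6 reads in EpCAM- library 3, more than the other genes.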
